A study of Mus musculus with 265 samples.

Results

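Regions of open chromatin that lie inside the introns of protein-coding genes, away from start sites, were examined in single B3 cells before and 24 hours after the nuclear entry of Ikaros. A region was taken as intronic when its midpoint lay more than 1 kb from every protein-coding gene start of GENCODE vM21, when it overlapped a protein-coding gene body and when it touched no protein-coding exon. Of the 20103 regions of the matrix, 4508 (22.4%) met this rule, which used position only and no measured value. The other regions were 8786 start-site regions, 1478 exonic regions and 5331 intergenic regions.

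The B3 line is of mouse pre-B cells and carries Ikaros fused to ERt2, a form of the estrogen receptor's ligand-binding domain. All cells compared here carry this fusion. The 0-hour cells had no 4-hydroxytamoxifen, and the 24-hour cells were exposed to it for 24 hours, with a further dose at about 12 hours. Each group came from 2 Fluidigm C1 runs, with 48 and 47 cells in 0-hour runs 1 and 2 and 60 and 72 cells in 24-hour runs 3 and 4. No cells without the fusion, and none with tamoxifen alone, were in the comparison, so Ikaros, tamoxifen and time in culture cannot be told apart. Each run held cells of 1 time-point, and no source used here says that the runs were separate cultures, so p-values set differences against the spread between runs, which may be technical.

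Introns hold many of the enhancers of developmental genes, which are bound by transcription factors and act on the promoter of their host gene or of another gene. In contrast to promoters, which are mostly rich in GC and open in many cell types, distal elements of this kind are mostly specific to a lineage. Ikaros is a zinc-finger factor of lymphocyte development that binds sites with the core GGGAA and acts in complexes that remodel chromatin. In pre-B cells it is known for ending proliferation and promoting differentiation.

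Sequences are given for 7 regions on which the results below turn, taken from the GRCm38.p6 reference, which has the coordinates of mm10, and written on the forward strand of the chromosome. Capitals mark the Ikaros core GGGAA or its reverse complement TTCCC. The first is the only intronic region that passed the adjusted threshold, in intron 26 of Dlg2, which encodes a scaffold protein of synapses, and the next is its neighbour in the same intron. The regions of Fam19a2, Mef2c and Lef1 were lower at 24 hours in both runs, and those of Pax5 and of the Fgfr2 gene model were higher in both.
Dlg2, chr7:92442282-92442381: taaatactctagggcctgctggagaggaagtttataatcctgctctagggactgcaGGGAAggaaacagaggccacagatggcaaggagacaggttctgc
Dlg2, chr7:92441817-92441927: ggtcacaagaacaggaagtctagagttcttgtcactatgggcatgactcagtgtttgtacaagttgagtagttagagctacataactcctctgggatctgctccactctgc
Fam19a2, chr10:123554787-123555007: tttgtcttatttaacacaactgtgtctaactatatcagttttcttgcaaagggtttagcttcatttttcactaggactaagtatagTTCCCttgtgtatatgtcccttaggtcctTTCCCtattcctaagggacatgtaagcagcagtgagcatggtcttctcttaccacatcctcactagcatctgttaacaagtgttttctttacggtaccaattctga
Mef2c, chr13:83572146-83572285: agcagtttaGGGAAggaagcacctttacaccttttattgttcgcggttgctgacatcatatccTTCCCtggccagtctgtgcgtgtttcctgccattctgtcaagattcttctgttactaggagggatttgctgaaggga
Lef1, chr3:131208614-131208735: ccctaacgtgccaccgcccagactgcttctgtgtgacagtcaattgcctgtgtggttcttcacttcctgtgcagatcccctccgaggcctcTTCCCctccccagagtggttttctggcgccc
Pax5, chr4:44704498-44704649: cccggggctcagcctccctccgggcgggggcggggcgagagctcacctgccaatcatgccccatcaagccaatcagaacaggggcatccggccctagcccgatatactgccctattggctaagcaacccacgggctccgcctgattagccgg
Fgfr2 gene model, chr7:130834440-130834590: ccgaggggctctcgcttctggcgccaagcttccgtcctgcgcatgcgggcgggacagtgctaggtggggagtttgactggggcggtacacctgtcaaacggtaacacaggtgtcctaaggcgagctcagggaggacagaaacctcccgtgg
The Mef2c and Fam19a2 regions each held 2 Ikaros cores, the called Dlg2 region and the Lef1 region 1, and the other 3 regions none. The called Dlg2 region also held GAGGAA, a site of the PU.1 type, and the Lef1 and Fam19a2 regions held TGTGGT, the RUNX letters, in Fam19a2 on the minus strand. The Lef1 region held the letters of a composite ETS-IRF site and a GC box, GGGCGG, as well. GC boxes and the E-box letters CAGGTG stood in the Pax5 and Fgfr2 regions, and the EBF1-type letters CCCNNGGG in the Pax5 region. The neighbouring Dlg2 region held the AP-1 letters TGANTCA. These matches are letters in the window and not measured binding.

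The intronic regions were short, with a median width of 134 bp and a highest of 287 bp. Their median distance to the closest protein-coding gene start was 23.1 kb, with quartiles of 7.69 and 59.5 kb. They fell in 2640 host genes, of which 1693 held 1 region and 147 held at least 5. Of the 4269 regions that could be placed in an intron of the host's longest protein-coding transcript, 1708 (40.0%) lay in the first intron and 785 in the second. The 150 bases around the midpoint had a median GC of 52.7%, the same as in intergenic regions and below the 65.3% of start-site regions. An annotated transcript start of a protein-coding gene lay within 1 kb of 733 intronic regions (16.3%), since the rule used gene starts only. Of all intronic regions, 4260 also lay in a protein-coding gene body of RefSeq.

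Most of these regions were detected in few of the sampled cells. The median intronic region was detected in 10 of 227 cells, as was the median intergenic region, and the median start-site region in 19. Detection in at least 10% of cells was reached by 466 intronic regions (10.3%), against 39.7% of start-site regions. Genes that define pre-B cells had signal at 9 of 10 markers, among them Pax5, Ebf1, Cd79a, Cd79b and Blnk, with 31 regions in all. No region had any of 7 myeloid markers as its closest gene start, although 1 region lay in an intron of Itgam, and by closest start regions were found for 3 of 8 T and NK markers and for 1 of 5 erythroid markers, Klf1. The summed pre-B marker signal was 1698 and 1565 CPM (counts scaled by the total of the run) at 0 hours and 1803 and 1346 at 24 hours, so the groups overlapped. Of the 9 markers, 3 had more CPM in both 0-hour runs and 1 in both 24-hour runs. Higher at 0 hours were Igll1 (298 and 184 against 65.3 and 84.1 CPM), Il7r (85.2 and 75.6 against 8.16 and 14.0) and Cd79a (103 and 86.4 against 65.3 and 49.1), and higher at 24 hours was Pax5 (499 and 432 against 644 and 505). The summed T and NK marker signal was 170 and 173 CPM at 0 hours and 155 and 84.1 at 24 hours, and the erythroid signal, at Klf1 alone, was 60.8 and 21.6 against 97.9 and 63.1, with no overlap in either sum. The part of these markers in the results was not tested.

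Intronic regions took a smaller part of the signal in both 24-hour runs. They held 20.0% and 21.1% of all counts in 0-hour runs 1 and 2, and 15.7% and 11.7% in 24-hour runs 3 and 4. The mean share was 20.5% ± 0.787 (SD, n = 2 runs) at 0 hours and 13.7% ± 2.85 (SD, n = 2 runs) at 24 hours, a difference of -6.81 percentage points. The groups did not overlap, and the 24-hour runs differed from each other by more than the 0-hour runs did. The two-sided exact permutation test of the 4 runs gave p = 0.333, the smallest value that 2 runs against 2 allow, so no share of this kind could pass 0.05. Without run 3 the difference was -8.82 percentage points, and without run 4 it was -4.79.

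The start-site regions took the opposite course, with 51.0% and 48.5% of the counts at 0 hours and 58.3% and 66.4% at 24 hours. The log2 ratio of intronic to start-site signal was -1.35 and -1.20 at 0 hours and -1.89 and -2.50 at 24 hours, a difference of -0.92 (exact permutation p = 0.333). Intergenic regions held 21.8% and 23.4% at 0 hours and 19.0% and 15.5% at 24 hours. Set against intergenic signal, the intronic log2 ratio was -0.13 and -0.15 at 0 hours and -0.27 and -0.40 at 24 hours, again without overlap (exact permutation p = 0.333). A share of the counts does not show which class of regions gained or lost accessibility in a cell, since the classes sum to the whole. Per cell, intronic counts averaged 684 and 416 at 0 hours against 322 and 232 at 24 hours, while start-site counts averaged 1747 and 956 against 1191 and 1314 and so overlapped.

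The difference was seen in most single cells and not only in the sums. The median intronic share of a cell was 20.5% and 21.5% at 0 hours against 14.8% and 10.7% at 24 hours. A share under 15% was found in 2 of 48 and 2 of 47 cells at 0 hours, and in 30 of 60 and 64 of 72 cells at 24 hours. The 4 exceptional 0-hour cells had intronic shares from 7.85% to 12.7% and start-site shares from 63.1% to 73.9%, in the range of 24-hour cells. A share above 20% was found in 62 0-hour cells and in 2 24-hour cells.

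**Figure D1:**
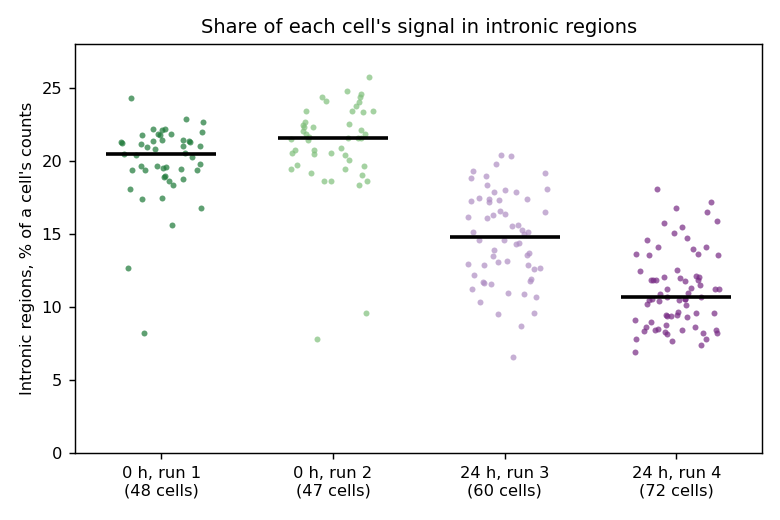
Each point is a cell, with the run on the horizontal axis and the percentage of the cell's counts that fell in intronic regions on the vertical axis; the black line is the median of the run. The medians stand at 20.5% and 21.5% for runs 1 and 2 and at 14.8% and 10.7% for runs 3 and 4, and a few 0-hour cells lie among the 24-hour cells.

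Depth differed between cells and moved with the share within the 24-hour runs. There, deeper cells had the larger intronic share, with Spearman's rho of 0.625 over the 60 cells of run 3 and 0.364 over the 72 cells of run 4, whereas rho was -0.0914 and -0.239 in the 0-hour runs. The share and the depth are computed from the same counts of a cell, and these values are descriptions. In cells of 1000 to 2500 counts only, the intronic share was 20.8% and 21.4% at 0 hours (17 and 31 cells) and 15.4% and 11.1% at 24 hours (29 and 41 cells). After each cell was thinned to 837 counts, the median number of intronic regions detected per cell was 152 and 151.5 at 0 hours and 117 and 71 at 24 hours (exact permutation p = 0.333). Thinning left out 23 cells of lower depth, 1 of them at 0 hours and 22 at 24 hours. Unthinned, the medians were 362, 243, 191.5 and 129.5 regions in runs 1 to 4.

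Region by region, the intronic class had the lowest median change of the 4 classes. Changes were fitted as log2 ratios of 24 over 0 hours on counts summed per run, in 1 edgeR fit of all regions. The median intronic change was -0.72, and 69.7% of intronic regions lay below 0. The medians were -0.50 for intergenic, -0.17 for exonic and 0.33 for start-site regions, and -0.06 over all regions. In regions detected in at least 41 cells, however, the median was 0.29 for intronic (71 regions) and 0.24 for intergenic regions (80 regions). In every band of fewer cells the intronic median was the lowest. Both 0-hour runs stood above both 24-hour runs in 1794 intronic regions (39.8%), against 34.6% of intergenic regions and a background of 25.7% of all regions. The reverse held for 441 intronic regions (9.78%), against 19.3% of all regions. At an unadjusted p under 0.05, 549 intronic regions (12.2%) were lower at 24 hours, where 11.1% of intergenic and 7% of all regions were. At that p 94 (2.09%) were higher, where 3.51% of intergenic and 5.11% of all regions were. The intergenic class thus lay close to the intronic one in these counts.

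**Figure D2:**
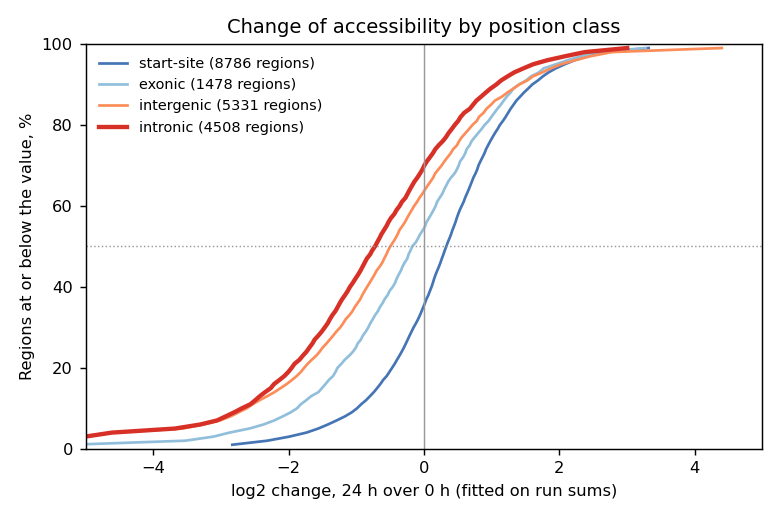
The horizontal axis is the fitted log2 change of a region, 24 hours over 0 hours, and the vertical axis is the percentage of the regions of a class at or below that value, drawn at each percentile from 1 to 99. The intronic curve crosses 50% at -0.72, to the left of the intergenic (-0.50), exonic (-0.17) and start-site (0.33) curves.

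The same genes showed the contrast between introns and start sites. For 1188 genes with both an intronic region and a start-site region, signal was summed over each kind and compared as log2 of the mean CPM, with TMM factors, plus 5. The median change was -0.70 for the intronic and 0.29 for the start-site signal, and the intronic change was the lower of the pair in 871 genes (73.3%). The intronic sum was higher in both 0-hour runs in 541 of these genes (45.5%) and higher in both 24-hour runs in 90 (7.58%), while the start-site sum was higher in both 0-hour runs in 165 (13.9%) and in both 24-hour runs in 327 (27.5%). Of all single regions, 25.7% and 19.3% were so ordered.

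Distance from a transcript start and base composition moved with the change. Intronic regions within 0.5 kb of an annotated transcript start had a median log2 change of -0.22 (456 regions), those from 0.5 to 1 kb -0.15 (277 regions) and those from 1 to 2 kb -0.54 (508 regions). The medians were -0.83 from 2 to 5 kb (675 regions), -0.80 from 5 to 20 kb (1418 regions), -0.95 from 20 to 50 kb (728 regions) and -1.01 beyond 50 kb (446 regions), so they did not go down at every step. The share of the class within 1 kb of such a start was 3.67% and 3.57% of all counts at 0 hours and 3.30% and 3.07% at 24 hours, against 16.3%, 17.5%, 12.4% and 8.65% for the regions farther away. Most of the difference in the class as a whole therefore lay in the 3775 regions that were far from every transcript start. At the border of the rule, the 228 intronic regions from 1 to 1.5 kb of a gene start had a median change of -0.35, and the 746 start-site regions inside a gene body from 0.5 to 1 kb a median of 0.01.

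Regions above 65% GC had a median of 0.19 among 291 intronic regions and 0.46 among start-site regions. From 45% to 50% GC the medians were -0.92 for intronic and -0.06 for start-site regions, and the intronic median was the lower in each of the 7 GC bands. By intron number, the median change was -0.72 in the first intron, -0.76 in the second, -0.78 in the third, -0.60 in the fourth, -0.93 in the fifth and -0.77 in the sixth or later. What part GC, through amplification or sequencing, has in the difference between time-points was not tested.

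**Figure D3:**
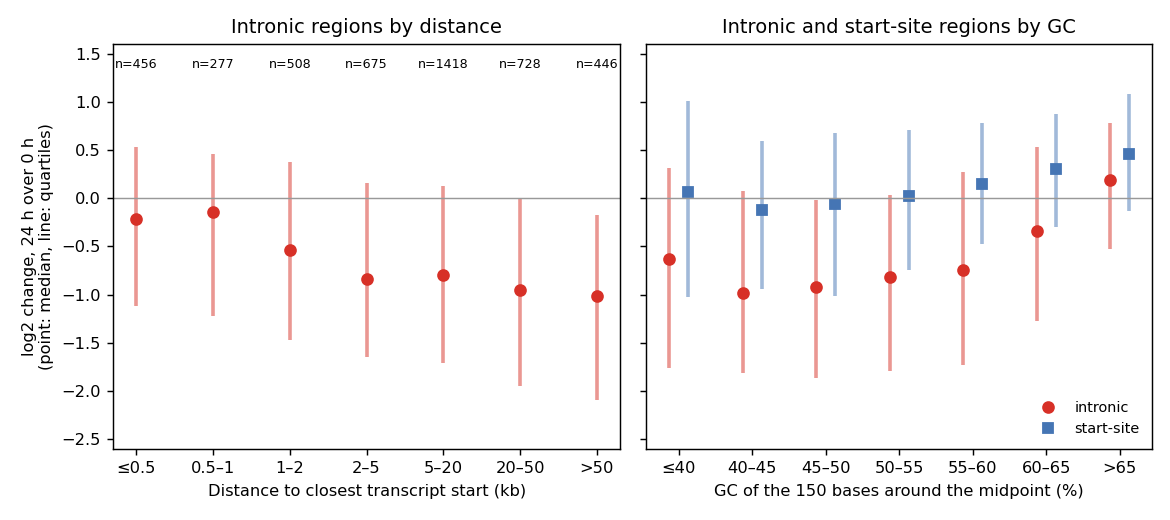
Points are medians and lines join the quartiles of the fitted log2 change, 24 hours over 0 hours. On the left, intronic regions are binned by distance to the closest transcript start of a protein-coding gene, and the medians are -0.22 and -0.15 within 1 kb and from -0.80 to -1.01 beyond 2 kb; on the right, intronic and start-site regions are binned by the GC of the 150 bases around their midpoint, and the intronic median is the lower in every bin.

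Sequence letters of several factor families were found more often in intronic than in start-site regions, and at similar shares in intergenic regions. The RUNX letters TGTGGT stood in the central 150 bases of 24.6% of intronic, 21.9% of intergenic, 5.53% of start-site and 14.7% of all regions, both strands being searched. The intronic regions with these letters had a median log2 change of -1.0, and those without them -0.63. The composite ETS-IRF letters GGAANNGAA (6.83% of intronic, 6.62% of intergenic, 5.13% of all regions) stood with a median of -1.07 against -0.70, and the AP-1 letters TGANTCA (5.90% of intronic, 5.97% of intergenic, 3.85% of all) with -1.16 against -0.70. The Ikaros core GGGAA was in 42.1% of intronic and 39.2% of all regions, with medians of -0.88 where it was found and -0.63 where it was not. The PU.1-type letters GAGGAA, which can share bases with the composite site, were in 28.6% of intronic and 21.0% of all regions (-0.89 against -0.67). The E2A-type E-box CAGCTG was in 18.8% of intronic and 13.3% of all regions (-0.94 against -0.68).

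The medians of the other letters lay on both sides of the class median. Intronic regions with AGGGGGC, the core of the CTCF site, had a median of -0.02 (281 regions) against -0.78 without it, and regions with the GC box GGGCGG a median of -0.07 (526 regions) against -0.82. CTCF is the insulator protein at the borders of chromatin loops, and GC boxes are bound by SP and KLF factors at promoters. The median GC of regions with these letters was 56.7% and 62.0%, against 52% in the intronic regions without the CTCF core and 52% in those without the GC box. The FOXO letters TGTTTAC were in 1.62% of intronic regions (-0.46 against -0.73) and the MEF2 letters TAAAAATA in 2.44% (-0.92 against -0.72). The medians were -0.85 against -0.70 for the EBF1-type palindrome CCCNNGGG, -0.66 against -0.73 for the second E-box CAGGTG and -0.53 against -0.75 for the ETS1-type CCGGAA. No binding was measured, and these medians are descriptions.

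One intronic region passed the adjusted threshold of 0.05, at a background of 0.0149% of all regions called higher at 0 hours. It lies at chr7:92442282-92442381 in intron 26 of the 27 introns of Dlg2. It was detected in 17 of 48 cells (35.4%) and 11 of 47 cells (23.4%) at 0 hours, and in 1 of 60 (1.67%) and 0 of 72 cells at 24 hours, where 0 of 72 cells allows a share of up to 4.17% by the limit of 3 counts and 4.99% by the exact binomial interval. The 95% exact binomial interval was 22.2% to 50.5% in run 1 and 0.0422% to 8.94% in run 3, and these intervals cover counting error only. With 39 counts at 0 hours and 1 at 24 hours, the normalised count was 38.9 times higher at 0 hours, with a 95% counting interval from 6.58 to 1576. That interval takes counts as independent, but 53.6% of the intronic values above 0 were 2, so it is likely too narrow. The fitted log2 change was -4.94 ± 1.04 (SE, n = 2 runs per time-point), with an edgeR adjusted p of 0.0337. After thinning, the region was found in 14.6% and 10.9% of cells at 0 hours and in no cell of either 24-hour run. The call was lost in DESeq2 (adjusted p = 0.817), with 0/1 values (0.236), with the number of cells as offset (0.0997), in thinned cells (0.709) and without run 1 (0.388), run 2 (0.513) or run 4 (0.0727), and the direction held in each of these.

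The neighbouring Dlg2 region, chr7:92441817-92441927, was found in 10 and 6 cells at 0 hours and in 3 and 0 cells at 24 hours. It did not pass the test (adjusted p = 0.238). The closest protein-coding gene start to both regions was that of Ccdc90b, at 119 kb, and not that of Dlg2, although an annotated start of a protein-coding transcript lay 14203 bp from the neighbouring region. No intronic region was called higher at 24 hours by edgeR, where the background was 0.0398% of all regions. At an unadjusted p under 0.05, 94 were higher, and DESeq2 called 0. When run 3 was left out, 150 of the 4508 intronic regions were called higher at 0 hours and 29 higher at 24 hours, against 341 and 456 of all 20103 regions, in a fit in which run 4 alone stands for 24 hours with the spread between runs taken from 0 hours. The counts without run 1, 2 or 4 were 0 or 1 in each direction.

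The 16 regions of largest change were taken among those detected in at least 10% of cells, with runs that did not overlap in normalised counts and with an unadjusted p under 0.05. Of the 466 intronic regions detected that often, 71 (15.2%) met these terms as higher at 0 hours and 18 (3.86%) as higher at 24 hours, against backgrounds of 3.8% and 9.81% of all such regions. Apart from the called Dlg2 region, none of the 16 passed the adjusted threshold, so their values are given as a description.

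Among those higher at 0 hours, the region in intron 2 of Fam19a2, which encodes a secreted chemokine-like protein, was found in 22.9% and 25.5% of cells at 0 hours, against 1.67% and 2.78% at 24 hours (log2 change -3.00 ± 0.78, SE). The Mad1l1 region, in intron 9 of a gene of the spindle checkpoint, was found in 27.1% and 29.8% against 3.33% and 2.78% of cells (-2.6 ± 0.72). The region in the first intron of Mrvi1, a substrate of cGMP-dependent kinase in calcium release, was found in 27.1% and 14.9% against 1.67% and 2.78% (-3.02 ± 0.85). In each of these 3 regions both 0-hour shares stood well above both 24-hour shares. The regions of Sema3d, a secreted guidance cue, Itpk1, an inositol phosphate kinase, and Gm42791 were found in 17.0% to 31.3% of cells at 0 hours, in 5% to 8.33% of cells in run 3 and in no cell of run 4. The Tnrc18 region was found in 25% and 17.0% of cells at 0 hours and in 6.67% and 1.39% at 24 hours.

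Among those higher at 24 hours, the region chr7:130834440-130834590 was found in 22.9% and 2.13% of cells at 0 hours and in 33.3% and 47.2% at 24 hours (log2 change 2.22 ± 0.54, adjusted p = 0.0898). Its host is the Fgfr2 record of GENCODE, which spans 2961 kb, and it lies in no RefSeq gene body, 31.2 kb from the start of Plekha1. The Aida region, in the first intron of a gene for an axin-binding protein and 2.02 kb from the start of Brox, was found in 20.8% and 10.6% of cells against 36.7% and 36.1% (1.99 ± 0.52). Run 2 was the lowest of the 4 runs at the Fgfr2 and Aida regions.

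A further 5 regions of this direction were in Gtf2i, a general factor with roles in signalling, Sorcs2, a sorting receptor, Inpp4a, a phosphoinositide phosphatase, Kmt5b, a histone H4 lysine methyltransferase, and Lrch1. Their fitted log2 changes ran from 1.82 to 2.53. At Sorcs2 and Kmt5b run 4 stood alone, with 31.9% and 30.6% of cells, and run 3 at 6.67% for both lay among the 0-hour runs in its share of cells.

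**Figure D4:**
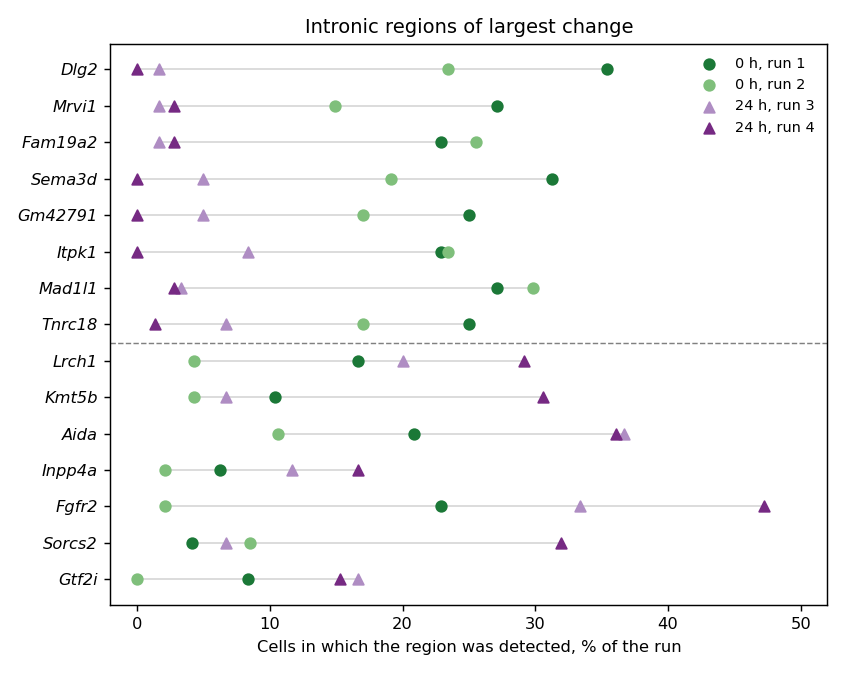
Each row is an intronic region, named by its host gene, and the horizontal axis is the percentage of the cells of a run in which it was detected; circles are 0-hour runs and triangles 24-hour runs. Above the dashed line stand the 8 regions of largest change with higher values at 0 hours, where all 24-hour shares are at or below 8.33%, and below it 7 of those with higher values at 24 hours, where the 24-hour run 4 reaches 47.2% at Fgfr2.

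Introns of the transcription factors of the B lineage held 107 regions, in 32 of 49 listed genes. At an unadjusted p under 0.05, 15 of these regions (14.0%) were lower at 24 hours and 0 higher. These shares stand against 12.2% and 2.09% of intronic and 7% and 5.11% of all regions. None passed the adjusted threshold. Both 0-hour runs were higher in 36 of the 107 (33.6%) and both 24-hour runs in 11 (10.3%). Of intronic regions 39.8% and 9.78% were so ordered, and of all regions 25.7% and 19.3%. The median log2 change was -0.67, near the -0.72 of all intronic regions. Genes of the list held several regions each, which are not independent of one another in cells of the same run.

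Mef2c, a factor of B-cell proliferation and survival, had 7 intronic regions that differed among themselves. The region chr13:83572146-83572285 in intron 2 was found in 14 and 14 cells at 0 hours and in 2 and 6 cells at 24 hours, a log2 change of -1.80 ± 0.66 (SE) that did not pass (adjusted p = 0.249). Its midpoint lay 132.5 bp from an annotated transcript start. The most detected Mef2c region, in intron 4, was found in 11 and 9 cells at 0 hours and in 14 and 16 at 24 hours, with a log2 change of 0.63 ± 0.55.

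The Lef1 region chr3:131208614-131208735, in the last of 11 introns of a factor that acts with beta-catenin, was found in 10 and 7 cells at 0 hours and in 1 and 1 cells at 24 hours. Its normalised count was 9.31 times higher at 0 hours, with a counting interval from 2.88 to 47.9 that takes counts as independent (adjusted p = 0.175). Bach2, a repressor that holds back plasma cell differentiation, had 7 intronic regions. In 4 of these both 0-hour runs had more normalised counts than both 24-hour runs, and 3 of the 4 had an unadjusted p under 0.05. These are 57.1% and 42.9% of the 7, where 39.8% and 12.2% of intronic and 25.7% and 7% of all regions were so. One of the 3, in intron 2, was found in 5 and 1 cells at 0 hours and in none at 24 hours. It was 3.33-fold lower when the 24-hour runs are set at a limit of 3 counts, which takes counts as independent. Fli1, an ETS factor, had 6 regions in its first intron, and the most distal of them was found in 11 and 7 cells at 0 hours and in 3 and 0 at 24 hours (-2.23 ± 0.87). At another Fli1 region, the counts were higher in both 24-hour runs, with 2 and 2 against 8 and 5 cells.

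Runx1, Runx2 and Runx3, which encode factors of blood cell development, held 12 intronic regions with a median log2 change of -1.53. Of these, 6 (50%) were higher in both 0-hour runs and 0 in both 24-hour runs. At an unadjusted p under 0.05, 3 (25%) were lower at 24 hours, where the backgrounds were those given for Bach2. The Runx genes, like Bach2, were picked from the 49 listed genes with the results known, so these shares are a description. Over the whole list the median was -0.67, and 33.6% of the regions were higher in both 0-hour runs. The regions described next were named because they had an unadjusted p under 0.05 and runs that did not overlap. A Runx3 region in the first intron was found in 12 and 7 cells at 0 hours and in 4 and 0 at 24 hours, and a Runx2 region in intron 6 in 10 and 7 against 2 and 2. Pou2f1, which encodes the octamer factor Oct-1, had a first-intron region in 10 and 6 against 3 and 0 cells. None of these 3 passed the adjusted threshold.

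Pax5, the factor that keeps B-cell identity, had 4 intronic regions, all in its first intron. The most detected, chr4:44704498-44704649, was found in 20.8% and 21.3% of cells at 0 hours and in 23.3% and 27.8% at 24 hours, with a log2 change of 0.71 ± 0.51 (adjusted p = 0.624). It lay 567.5 bp from an annotated transcript start and had a GC of 66.0%. The other 3 were found in 9, 8 and 11 cells of run 1 and in 5, 9 and 1 cells of run 4. Ebf1, a pioneer factor of the B lineage, had 8 intronic regions with log2 changes from -2.25 to 0.31, none with an unadjusted p under 0.05. The most detected Elf2 region was found in 13, 7, 12 and 22 cells of runs 1 to 4, and that of Foxp1 in 16, 3, 6 and 1. The shares at the most detected Foxp1 region were 33.3% and 6.38% in the 0-hour runs.

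Genes of signalling from the pre-B cell receptor held 58 intronic regions in 23 of 43 genes, of which 9 (15.5%) were lower at 24 hours at an unadjusted p under 0.05 and 0 higher, against 12.2% and 2.09% of intronic and 7% and 5.11% of all regions. Their median log2 change was -0.97, against -0.72 for the class. Both 0-hour runs stood above both 24-hour runs in 26 of the 58 (44.8%), against 39.8% of intronic and 25.7% of all regions, and the reverse held for 2. The Ptprc region in intron 2 of the gene for CD45, the phosphatase that opens the way for receptor signals, was found in 13 and 8 cells at 0 hours and in 3 and 6 at 24 hours (-1.39 ± 0.66, adjusted p = 0.372). The Inpp5d region, in the first intron of the gene for the inhibitory phosphatase SHIP1, was found in 7 and 10 against 2 and 1 cells. Regions of the kinase genes Lyn (2 regions) and Fyn, of Vav2, Pik3cd, Pik3ap1 and Plcg2 made up the rest of the 9, with 6 and 9 cells at 0 hours and 2 and 2 at 24 hours at the more detected Lyn region. The runs overlapped at Pik3ap1 alone among the 9. Plcg2, a phospholipase downstream of BLNK, had 5 intronic regions, of which the one farthest from the start was found in 12 and 7 against 4 and 0 cells. The adaptor gene Blnk itself had its most detected intronic region in 3, 5, 14 and 6 cells of runs 1 to 4, and Cbl in 7, 9, 7 and 4, with overlapping counts.

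The remaining lists held few regions. Of 13 regions in genes of the IL-7 receptor and JAK-STAT pathway, 1 (7.69%) was lower at 24 hours at an unadjusted p under 0.05, near the 7% of all regions. It was in Jak2, in 5 and 5 cells against 0 and 1, and 88.7% of its central window was masked as repeat. Adhesion genes held 11 regions with a median of -0.09, 54.5% of them below 0. Of the 11, 3 (27.3%) were higher in both 0-hour runs and 0 in both 24-hour runs. Of intronic regions 39.8% and 9.78% were so ordered, and of all regions 25.7% and 19.3%. Among the 11 were Ptk2, the focal adhesion kinase, in 7 and 4 against 0 and 0 cells, and Rap1a in 3 and 2 against 0 and 0. The Ptk2 region was 5.65-fold lower when the 24-hour runs are set at a limit of 3 counts, which takes counts as independent. Cell-cycle genes held 13 with a median of -0.22, 53.8% of them below 0. Among them was a first-intron region of E2f3, an activator of S-phase genes, in 6 and 4 against 0 and 0 cells. By the same limit of 3 counts, the E2f3 region was 5.65-fold lower. The most detected region of Cdkn1a, the p21 inhibitor of cyclin-dependent kinases, was found in 0 and 3 against 6 and 10 cells (log2 change 1.92 ± 0.98, adjusted p = 0.429).

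Chromatin remodelling genes held 28 regions with a median of -0.37, 3 of them lower at 24 hours (Mta3, Smarca2 and Gatad2a) and 1 higher (Jarid2) at an unadjusted p under 0.05. These are 10.7% and 3.57% of the list, where 12.2% and 2.09% of intronic and 7% and 5.11% of all regions were so. Both 0-hour runs were higher in 6 of the 28 (21.4%) and both 24-hour runs in 6 (21.4%). Of intronic regions 39.8% and 9.78% were so ordered, and of all regions 25.7% and 19.3%. Mta3 and Gatad2a encode subunits of NuRD, a complex that Ikaros joins. The Mta3 region was found in 10 and 12 against 5 and 3 cells, and the Gatad2a region in 7 and 4 against 1 and 0. T-cell and NK-cell genes held 13 regions, of which 1 (7.69%) was lower and 0 higher at 24 hours at an unadjusted p under 0.05, near the 7% of all regions. Of the 13, 8 (61.5%) were higher in both 0-hour runs, against 39.8% of intronic and 25.7% of all regions, and 0 in both 24-hour runs, against 9.78% and 19.3%, with Cd28 in 4 and 2 against 0 and 0 cells. Myeloid genes held 1 region, in Itgam, and erythroid and megakaryocyte genes 2, in Tfrc and Tal1, none with an unadjusted p under 0.05. Genes of neuronal synapses and adhesion held 23 regions in 8 of 28 genes, with a median of -1.36, 4 of them lower at 24 hours (among them 2 in Dlg2 and 1 in Macrod2) and 1 higher, in Il1rapl1, which was found in 2, 1, 5 and 13 cells of runs 1 to 4. The 4 and the 1 are 17.4% and 4.35% of the list, against 12.2% and 2.09% of intronic and 7% and 5.11% of all regions. This list was drawn up with the Dlg2 result known, so its count is no independent support.

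Pde4d, which encodes a phosphodiesterase that breaks down cyclic AMP, held the most regions of any single gene apart from an extended gene record, 35 over 1504 kb. Of these, 23 lay in intron 3. The log2 change was below 0 in 26 and above 0 in 9, with a median of -0.67, close to the class as a whole. At least 1 Pde4d region was detected in 93.8% and 91.5% of cells at 0 hours, against 78.3% and 51.4% at 24 hours. These shares depend on the depth of the cells. As a part of all counts of a run, the Pde4d regions held 0.206% and 0.227% at 0 hours and 0.163% and 0.0912% at 24 hours. The region 77.4 kb from the gene start was the most detected, in 17 and 19 cells at 0 hours and in 10 and 2 at 24 hours (-1.57 ± 0.59, adjusted p = 0.267). The 2 next along the gene, at 217 and 237 kb, were found in 24.2% and 22.1% of all 0-hour cells, against 7.58% and 6.82% at 24 hours. Toward the far end of the gene, the region at 1453 kb was found in 8.42% and 9.09%, so the difference was not shared by all regions of the gene.

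**Figure D5:**
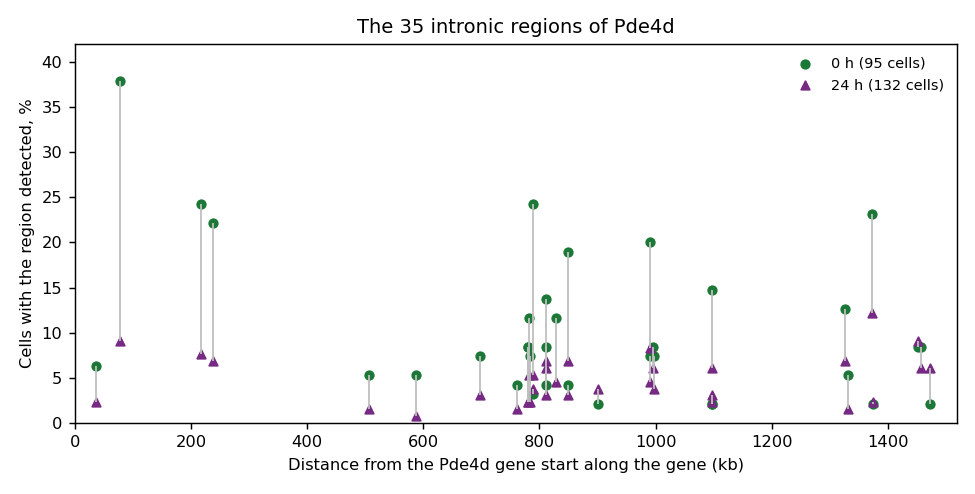
Each pair of points is an intronic region of Pde4d, placed on the horizontal axis by its distance from the gene start in kb, with the percentage of the 95 cells at 0 hours (circles) and of the 132 cells at 24 hours (triangles) in which it was detected. The largest drop is at 77.4 kb, from 37.9% to 9.09%, and 9 of the 35 regions have a fitted log2 change above 0.

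Other long genes held fewer regions. Prkce, a protein kinase C gene, had 12 intronic regions, of which 9 were higher in both 0-hour runs and 0 in both 24-hour runs (median -0.96). Sept9, a septin gene, also had 12, with 5 and 1 (median -0.68), and Med12l 13, with 4 and 2 (median -0.09). Of all intronic regions 39.8% and 9.78% were higher in both runs of 0 and of 24 hours, and of all regions 25.7% and 19.3%. The largest counts belonged to extended records. The record Gm20388 spans 4435 kb and overlapped 55 intronic regions, 32 of them with no other host, and the Fgfr2 record overlapped 17, none of which RefSeq places in Fgfr2. The 248 regions in no RefSeq gene body had a median log2 change of -0.29, and the 4260 in one had -0.75.

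The regions detected in the most cells were of another kind. A pair of regions in Gm21738, in windows masked as repeat over 57.3% and 65.3%, was found in 215 and 169 cells. A match to the mitochondrial genome, at 85.0% to 94.0% identity, was found for 8 intronic regions, among 27 of all regions, and 5 of the 8 were among the 10 most detected. Those in Stxbp4 and Nedd4l were found in at least 84.7% of the cells of every run. The mitochondria-like regions of Ccdc162 (77.1%, 91.5%, 45% and 34.7% of cells in runs 1 to 4), Zdhhc3 (64.6%, 70.2%, 33.3% and 23.6%) and Arhgef4 (56.3%, 59.6%, 26.7% and 22.2%) were lower at 24 hours in both runs. How far reads of mitochondrial DNA, which is open and present in many copies, entered these counts was not tested. Of the 4476 regions long enough to be matched, 73 had more than 1 copy in the genome. Without the multi-copy, unmatched and mitochondria-like regions, the intronic share was 19.3%, 20.2%, 15% and 11% in runs 1 to 4, a difference of -6.76 percentage points against -6.81 with them.

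The other regions among the 10 most detected lay near internal transcript starts. Those of Sin3a, a corepressor scaffold, Ppm1b, a phosphatase, and Hdac4, a histone deacetylase, stood 204, 224.5 and 164.5 bp from one. They were found in 88, 90 and 78 cells, and their log2 changes were 0.54, 0.86 and 1.06, above the class median. At Hdac4, run 4 had 54.2% of cells and the other 3 runs from 23.3% to 29.2%.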

How the data were processed

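Single-cell ATAC-seq maps open chromatin by the insertion of the Tn5 transposase. The authors aligned Fluidigm C1 reads to mm10, removed duplicates, kept libraries of more than 5000 fragments and counted them over peaks called with HOMER on bulk samples of both time-points. The deposited matrix holds these counts as whole numbers from 0 to 2, not normalized, for 20103 regions and 227 cells. The 4 runs hold 164357, 92639, 122586 and 142611 counts. Labels list 48, 63, 75 and 73 single cells, of which 48, 47, 60 and 72 are in the matrix. No doublet caller was run. Bulk samples were not analysed here.

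Counts were summed per run, since cells of a run are not replicates, and tested over all regions with edgeR 4.0.16 (quasi-likelihood, TMM factors, Benjamini-Hochberg at 0.05, R 4.3.3); the common coefficient of variation was 0.419. No filter on low counts was applied beyond the matrix's own minimum of 5 cells. The SE of a log2 change is its absolute value over the square root of the quasi-likelihood F statistic, not a spread of the run values. DESeq2 1.42.0 was an alternative. Single values were compared by a two-sided exact permutation test over runs. On data simulated with known changes at that variation, 5 of 200 changed regions were recovered with 0 false calls, and at 0.1, 75 of 200 with 1 false call. Shares of cells carry exact binomial intervals, and 0 counts a limit of 3. Counting intervals and this limit take counts as independent, which they are not where a cell gives 2. Of the intronic values above 0, 53.6% were 2.

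Regions were classed against GENCODE vM21. Copies (at least 90% identity over 80% of the length) and mitochondrial likeness were found with BLAST 2.17.0. GC and letters were read in 150 bases around the midpoint. Coordinates are as in the matrix, read as inclusive, so that an end may be 1 base off. Named regions were the 8 of largest change in each direction under the terms given, the most detected, those of listed genes (the most detected of 4 genes a list, and those with an unadjusted p under 0.05 and runs that did not overlap), and those of the host genes with most regions. All regions of Pde4d, of 8 list genes with several regions and of the mitochondria-like kind were added after their values were seen. Some items these rules select are not reported here. The members and lists were chosen with earlier results of these data known.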

Additional observations from a re-analysis of the deposited data

How the results depend on the processing

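With 1 region called higher at 0 hours, the count was 0 in DESeq2, with cell numbers as offset, with 0/1 values and at an adjusted p of 0.01, 5 with run totals and 3 among regions detected in at least 10% of cells. Leaving out 1 run gave from 0 to 150, the 150 without run 3. The count higher at 24 hours, 0, was 1 with run totals and from 0 to 29 without 1 run, the 29 again without run 3, where 341 and 456 of all regions were called. Among regions detected in at least 10% of cells, 198 were higher in both 0-hour runs and 46 in both 24-hour runs, which is 42.5% and 9.87% of them against 21.3% and 21.4% of all such regions. The 441 regions higher in both 24-hour runs were 227 under the cell offset and from 801 to 1098 without 1 run, where fewer runs have to separate. The median log2 change of -0.72 was -1.16 under the cell offset, which moved the median of all regions to -0.51, and ran from -1.23 without run 3 to -0.53 without run 4. Relative to all regions, the intronic median was -0.66 in the fit reported and -0.65 with that offset. The difference in share ran from -3.48 to -8.82 percentage points and stayed negative in each alternative run.

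Of 585 values of 65 named regions, 547 kept their direction and side of the threshold, 26 passed it newly, 7 (those of the called Dlg2 region) lost it and 5 changed sign. The sign changes were at Nedd4l (0.21), with -0.17 under the cell offset and from -0.10 to 0.61 without 1 run, and at Stxbp4 (0.20), with -0.18 under the cell offset, -0.052 in thinned cells and from -0.11 to 0.62 without 1 run. The cause was not tested. Column names number the runs 1 and 2 within each time-point, and no source says that a number marks a shared culture or day. The differences between run numbers at 0 and 24 hours had a correlation of -0.023 over the 20103 regions. With this number as a replicate block, a fit chosen after seeing the data, 1 intronic region was called higher at 0 hours and 0 at 24 hours, and the median was -0.75. The median intronic region was found in 10 cells, which limits values of single regions.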
